A study of Homo sapiens with 8 samples.

Results

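The metallothionein and zinc genes examined here were 6 metallothioneins (MT1E, MT1F, MT1G, MT1M, MT1X and MT2A), the metal-sensing transcription factor MTF1, the zinc exporter SLC30A1 and the zinc importer SLC39A10. They were taken by gene symbol, and all 9 were found among the 15745 genes of the count table. RNA was sequenced from HuH7, a human hepatoma line with wild-type genotype, in 8 libraries. All cells were first held for 6 h at 1% oxygen in medium without glucose, and were then returned to normoxia for 6 h with DMSO as vehicle in the I/R+DMSO group (n = 4) or with 20 µM ginsenoside Rk2, a compound of ginseng, in the I/R+Rk2 group (n = 4). The comparison asked how Rk2 given during reoxygenation changed transcripts. No library analysed here came from cells kept under normoxia throughout, so every value describes cells after oxygen and glucose deprivation. HuH7 is a tumour line and stands for hepatocytes only as such, and the labels do not say whether the libraries of a group came from separate cultures, so that p-values measure the spread between these libraries, which may be technical.

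Library totals ran from 16374082 to 30310479 counts, and 12910 genes that reached 10 counts in 4 or more libraries were tested, all 9 genes among them. A gene was called when its Benjamini-Hochberg adjusted p from edgeR's quasi-likelihood test over all tested genes was below 0.05. Hepatocyte transcripts were abundant, with at least 38063 counts of ALB and 95867 of AFP in each library. Of 9 markers of leukocytes, endothelium and fibroblasts, PTPRC, VWF, CDH5 and DCN were listed at 0 FPKM, COL1A1 had 0 to 17 counts, and the others were present, with 9539 to 18222 counts of LYZ. The 5 of these markers that were in the count table summed to 677 to 755 CPM (counts scaled to a common library size) in the I/R+DMSO libraries and 666 to 765 CPM in the I/R+Rk2 libraries.

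Metallothioneins are small proteins whose cysteines hold zinc and copper, and liver cells make large amounts of them. When free zinc rises, MTF1 binds to metal response elements in the promoters of metallothionein genes and of SLC30A1 and raises their transcription. SLC30A1 carries zinc out of the cell at the plasma membrane, and SLC39A10 carries it in.

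The 6 metallothionein genes lay within 75998 bases of chromosome 16 (chr16:56608199-56684196, GRCh38, GENCODE annotation), MT1G on the minus strand and the others on the plus strand. Each had 3 exons in its main transcript, which spanned 406 bases in MT1G and 829 bases in MT1M. The coding sequences are shown for MT2A, the most abundant of the 6, for MT1M, which had the largest fitted decrease among them, and for MT1G, whose counts varied most between libraries. Capitals mark cysteine codons, and the sequences run from the start to the stop codon.
MT2A: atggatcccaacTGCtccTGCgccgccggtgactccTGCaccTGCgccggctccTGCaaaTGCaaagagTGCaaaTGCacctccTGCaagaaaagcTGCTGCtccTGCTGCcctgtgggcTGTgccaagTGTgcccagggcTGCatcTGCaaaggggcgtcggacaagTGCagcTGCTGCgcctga
MT1M: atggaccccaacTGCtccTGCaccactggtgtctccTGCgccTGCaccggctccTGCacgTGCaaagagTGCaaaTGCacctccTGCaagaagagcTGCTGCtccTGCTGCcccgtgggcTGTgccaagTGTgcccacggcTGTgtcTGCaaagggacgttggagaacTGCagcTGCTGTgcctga
MT1G: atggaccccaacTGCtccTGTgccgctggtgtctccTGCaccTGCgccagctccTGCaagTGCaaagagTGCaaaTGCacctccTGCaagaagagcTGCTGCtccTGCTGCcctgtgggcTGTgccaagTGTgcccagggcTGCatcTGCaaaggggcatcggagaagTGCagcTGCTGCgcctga
Each coding sequence held 61 codons before the stop, of which 20 encoded cysteine (32.8%). Between pairs of the 6 genes, coding sequences were 88.7% to 95.2% identical (median 91.4%, 15 pairs), whereas whole main transcripts were 39.1% to 75.6% identical (median 50.7%). Reads from the coding part could therefore be shared between genes. Of all 50-base windows of the main transcript, 4.88% in MT2A, 5.34% in MT1E, 3.59% in MT1F, 7.05% in MT1M, 20.2% in MT1G and 45.1% in MT1X also occurred in another annotated gene. MT1X shared 321 exonic bases with AC026461.1 on the same strand, and without such overlaps its share was 15.96%. Of 100-base windows, and leaving out such overlaps, 0 were shared in any of the 6 genes. Read length and the handling of reads with several matches are not given in the sources used here, so assignment among these paralogs is uncertain, and single-gene values should be read beside the summed level. The sum is unchanged by sharing only if such reads were counted once on any of the 6. Some windows also occurred in genes outside the sum, such as MT1A and MT1P3.

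Promoter windows of 250 bases before the transcription start (RefSeq, GRCh38.p14) were matched for 5 of the 9 genes. They were searched on both strands for the core of the metal response element, written as TGCACNC and TGCGCNC. The windows of MT2A (chr16:56608334-56608583, plus strand), MT1X (chr16:56682220-56682469, plus strand) and SLC30A1 (chr1:211579162-211579411, minus strand) are shown because these held matches, which are in capitals.
MT2A: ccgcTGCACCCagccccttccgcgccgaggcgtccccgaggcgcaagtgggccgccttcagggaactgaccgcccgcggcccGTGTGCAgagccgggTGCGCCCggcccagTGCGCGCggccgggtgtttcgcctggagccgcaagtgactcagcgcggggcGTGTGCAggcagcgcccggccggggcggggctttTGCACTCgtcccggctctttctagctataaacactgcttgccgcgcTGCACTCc
MT1X: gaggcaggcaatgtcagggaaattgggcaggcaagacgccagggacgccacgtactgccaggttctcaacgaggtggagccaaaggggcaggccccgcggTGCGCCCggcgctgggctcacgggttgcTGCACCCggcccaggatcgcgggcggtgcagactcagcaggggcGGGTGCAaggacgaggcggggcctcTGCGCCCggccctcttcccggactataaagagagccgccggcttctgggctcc
SLC30A1: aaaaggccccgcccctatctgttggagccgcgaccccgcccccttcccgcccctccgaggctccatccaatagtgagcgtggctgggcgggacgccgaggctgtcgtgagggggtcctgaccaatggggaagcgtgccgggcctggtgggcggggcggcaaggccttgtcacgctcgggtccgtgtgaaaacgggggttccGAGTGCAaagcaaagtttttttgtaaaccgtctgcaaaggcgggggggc
MT2A held 7 matches, MT1X held 4 and SLC30A1 held 1. The GENCODE gene of SLC30A1 starts at chr1:211578742 on the minus strand. Its RefSeq window lies upstream of that start and does not reach it, so bases between them were not searched. Among 35116 promoter windows, 24.8% held any match, 0.0313% held as many as MT2A and 0.370% as many as MT1X. The MTF1 window and both SLC39A10 windows held none, which says only that these letters were not in those windows. The matches are descriptions of sequence and not of binding.

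Most metallothionein transcripts were lower with Rk2 than with vehicle. Of the 6 metallothioneins, 5 fell and MT1G did not pass the test, against 7.24% of all tested genes and 13.9% of tested genes of up to 1000 bases that were called lower. After a correction for gene length 3 of the 6 were called lower (MT2A, MT1M and MT1X). With that correction, 9.5% of all tested genes and 3.4% of those of up to 1000 bases were called lower. When it used gene lengths from the GENCODE annotation, MT1F was called lower as well (-0.32, edgeR adjusted p = 0.023). SLC30A1 and SLC39A10 rose on counts as deposited, against 11.0% of all tested genes called higher, and MTF1 did not pass the test. The sign of SLC30A1 turned with the length correction (-0.02) and with a correction for GC content (-0.03), but not with GENCODE length (0.11). SLC39A10 was not called with the GC correction (0.10, edgeR adjusted p = 0.19). In bulk RNA, fewer cells of a type and less RNA per cell cannot be told apart.

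MT2A, usually the leading metallothionein of liver cells, had 556, 427, 420 and 447 CPM in the I/R+DMSO libraries and 350, 311, 305 and 311 CPM in the I/R+Rk2 libraries. The groups did not overlap, and replicate 1 was the highest library of each. The mean went from 463 ± 63.6 to 319 ± 20.8 CPM (SD, n = 4), and the log2 fold change was -0.53 ± 0.095 (SE, edgeR adjusted p = 0.0082), a decrease to 0.691 of the vehicle level.

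MT1X had 203, 157, 166 and 158 CPM with DMSO and 131, 130, 112 and 126 CPM with Rk2. Every Rk2 library was again below every DMSO library, and the log2 fold change was -0.46 ± 0.091 (edgeR adjusted p = 0.013). MT1M had 89.9, 68.4, 72.5 and 69.5 CPM with DMSO and 55.4, 45.4, 50.1 and 46.3 CPM with Rk2. It fell by 0.61 ± 0.10 on the log2 scale (edgeR adjusted p = 0.0073) and was the only one of the 9 genes to fall by more than 1.5-fold, as 0.581% of all tested genes did.

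MT1E had 241, 194, 233 and 239 CPM with DMSO and 192, 176, 181 and 136 CPM with Rk2. The lowest DMSO library and the highest Rk2 library were close to each other, and the log2 fold change of -0.40 ± 0.11 only just passed the threshold (edgeR adjusted p = 0.043). MT1F had 79.5, 71.0, 63.4 and 72.0 CPM with DMSO and 55.2, 55.3, 56.0 and 44.6 CPM with Rk2. Its groups did not overlap, and it fell by 0.44 ± 0.094 on the log2 scale (edgeR adjusted p = 0.017).

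MT1G, which shares the same coding length, had 76.6, 24.7, 24.7 and 22.2 CPM with DMSO and 20.3, 43.3, 17.2 and 41.6 CPM with Rk2. I/R+DMSO replicate 1 and I/R+Rk2 replicates 2 and 4 were high, the other 5 libraries lay between 17.2 and 24.7 CPM, and the groups overlapped. The log2 fold change was -0.27 ± 0.50 (edgeR adjusted p = 0.74), and without I/R+DMSO replicate 1 it was 0.36, so its direction rested on that library. Within groups, the highest MT1G library exceeded the lowest 3.45-fold with DMSO and 2.51-fold with Rk2, compared with 1.32-fold and 1.15-fold for MT2A.

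**Figure D1:**
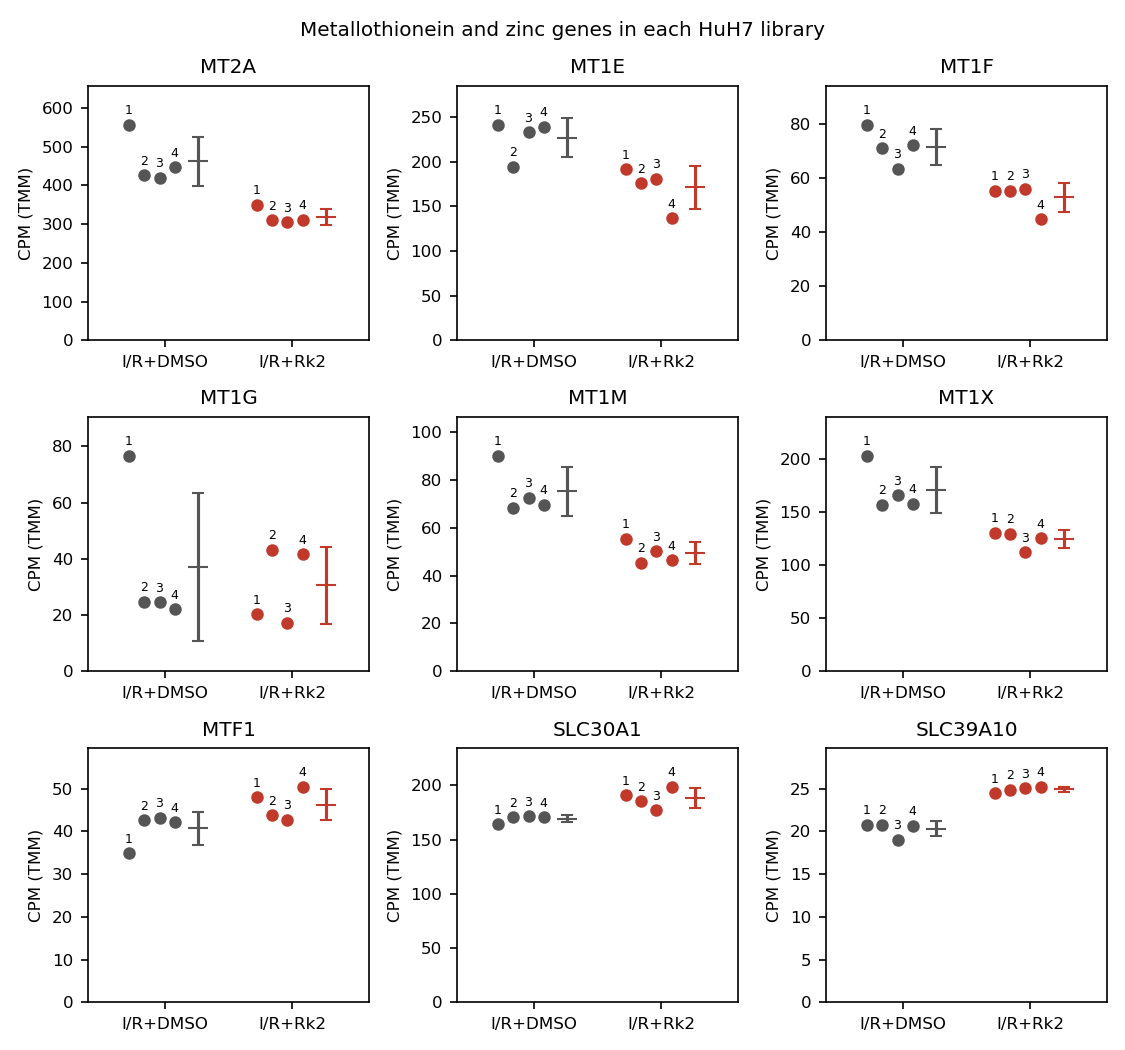
CPM scaled by the trimmed mean of M-values (vertical axes, each from 0) for the 9 genes in the 4 I/R+DMSO (grey) and 4 I/R+Rk2 (red) libraries, with replicate numbers above the points and the group mean ± SD beside them. The groups are apart in MT2A, MT1E, MT1F, MT1M, MT1X, SLC30A1 and SLC39A10 and overlap in MT1G and MTF1.

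All Rk2 libraries lay below all DMSO libraries for 5 of the 6 metallothioneins, as they did for 12.9% of all tested genes. Summed over the 6 genes, the level was 1247, 942, 979 and 1008 CPM with DMSO and 804, 760, 722 and 706 CPM with Rk2. The mean of the sum was 1044 ± 138 CPM (SD, n = 4) with DMSO and 748 ± 43.6 CPM with Rk2, a ratio of 0.717 (log2 -0.48, a description with no test). MT2A contributed 40.9% to 45.3% of the sum in every library, whereas MT1G amounted to 4.96% to 13.9% of the MT2A level. The 6 genes together took 0.103% ± 0.013 of all counts with DMSO and 0.0756% ± 0.0042 with Rk2.

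Compared per length, in FPKM (fragments scaled to gene length and library size), the order with DMSO was MT2A (mean 533 FPKM), MT1X (289), MT1E (272), MT1F (91.6), MT1M (77.7), MT1G (73.7), SLC30A1 (25.5), SLC39A10 (4.51) and MTF1 (4.29). MT1X and MT1E overlapped between libraries, as did MT1F with MT1M, MT1M with MT1G, and SLC39A10 with MTF1. Ranges of the libraries alone therefore do not order these neighbours. Compared within libraries, MT1F stood above MT1M in each library of both groups. With Rk2 the ranges of MT1F and MT1M did not overlap (60.4 to 73.9 and 50.9 to 58.0 FPKM). With Rk2 the order was the same except that MT1G (63.8 FPKM) stood above MT1M (53.7 FPKM), with overlapping libraries (36.2 to 89.5 and 50.9 to 58.0 FPKM). Without I/R+DMSO replicate 1, the MT1G mean with DMSO was 47.3 FPKM.

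Of the other metallothionein genes looked for, 3 had enough counts to be tested, and all 3 fell, beside 7.24% of all tested genes and 13.9% of those of up to 1000 bases. MT1A went from 16.1 ± 1.5 to 12.5 ± 1.5 CPM (SD, n = 4) and MT1B from 9.17 ± 1.6 to 6.20 ± 0.21 CPM. MT1H went from 1.36 ± 0.13 to 0.835 ± 0.12 CPM. The log2 fold changes were -0.36 for MT1A (edgeR adjusted p = 0.047), -0.56 for MT1B (edgeR adjusted p = 0.020) and -0.71 for MT1H (edgeR adjusted p = 0.027). These calls were fragile, since MT1A kept its call in 1, MT1B in 4 and MT1H in 3 of 8 fits without a single library. MT3, a metallothionein of the brain, had 0 to 2 counts per library. Over the 9 tested metallothionein genes the median log2 fold change was -0.46, with all 9 negative, beside a median of -0.002 over all tested genes. Among the 618 tested genes of up to 1000 bases, 524 were negative, with a median of -0.20. With length corrected, 8 of the 9 were negative, with a median of -0.26. MT1B shared 120 exonic bases with AC026461.2 on the same strand.

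SLC30A1, the exporter, had 164, 170, 171 and 171 CPM with DMSO and 191, 186, 177 and 199 CPM with Rk2. The groups did not overlap, but the rise was small, with a log2 fold change of 0.15 ± 0.042 (edgeR adjusted p = 0.040), and the call was kept in 1 of 8 fits when single libraries were left out in turn. With length corrected it was at -0.02, and at 0.11 when GENCODE length was used in that correction. SLC39A10, the importer, had 20.8, 20.8, 19.0 and 20.6 CPM with DMSO and 24.5, 24.9, 25.1 and 25.2 CPM with Rk2. Its Rk2 libraries were close together and all above the DMSO libraries, and the log2 fold change was 0.29 ± 0.052 (edgeR adjusted p = 0.0082). All Rk2 libraries lay above all DMSO libraries for 15.4% of all tested genes.

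MTF1, the zinc sensor, had 34.8, 42.6, 43.3 and 42.1 CPM with DMSO and 48.1, 43.8, 42.8 and 50.4 CPM with Rk2. The groups overlapped, and the log2 fold change of 0.19 ± 0.086 was not called (edgeR adjusted p = 0.17).

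The metallothioneins are among the shortest genes tested, and fold changes in these libraries moved with gene length. Length was derived from each gene's counts and FPKM values and was 489 bases for MT1G, 586 for MT1X, 770 for MT1F, 821 for MT1E, 852 for MT2A and 945 for MT1M. SLC39A10 (4466 bases), SLC30A1 (6543) and MTF1 (9519) were longer than the median tested gene (2919 bases). Longer genes had higher log2 fold changes (Spearman's rho 0.388 across 12908 genes, a description, since genes are not replicates).

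Among the 618 tested genes of up to 1000 bases, the median log2 fold change was -0.20 (interquartile range -0.29 to -0.083), with 86 called lower (13.9%) and 5 called higher. Among the 2662 genes over 5000 bases it was 0.17, with 72 called lower and 603 called higher. The 5 metallothioneins that fell, at -0.40 to -0.61, lay below the interquartile range of genes of up to 1000 bases. MT1G lay inside it.

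**Figure D2:**
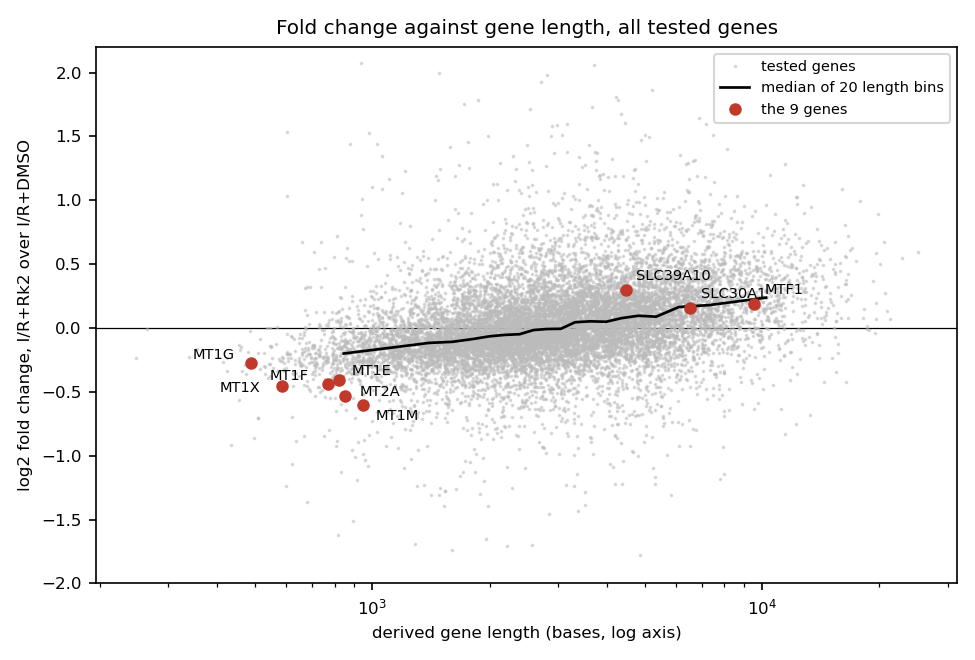
Log2 fold change of I/R+Rk2 over I/R+DMSO (vertical axis) against derived gene length in bases (horizontal log axis) for tested genes (grey), with the median of 20 length bins (line) and the 9 genes (red); 28 genes outside the axes are not drawn. The line climbs with length, MTF1 and SLC30A1 sit close to it, and MT2A and MT1M sit well below it.

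The length trend was not the same in every library. Relative to the mean of all libraries, the median gene of up to 1000 bases stood 0.29 higher on the log2 scale in I/R+DMSO replicate 1, 0.020 to 0.062 higher in the other DMSO libraries, and at -0.04 to -0.15 in the Rk2 libraries. I/R+DMSO replicate 1 was also the library with the highest level of each of the 6 metallothioneins. Whether the length trend arose in the cells or in library preparation cannot be told apart here, since it separated the groups.

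When a smooth trend on length was removed from each library before the test, rho was -0.010, and 9.50% of tested genes were called lower and 7.98% higher. MT2A, MT1M and MT1X still fell, by 0.36 ± 0.056, 0.45 ± 0.067 and 0.23 ± 0.048 on the log2 scale (edgeR adjusted p = 0.0045, 0.0041 and 0.016). MT1F (log2 fold change -0.26, edgeR adjusted p = 0.055) and MT1E (log2 fold change -0.23, edgeR adjusted p = 0.14) kept their sign but were no longer called. MT1G was at 0.02 with derived length (edgeR adjusted p = 0.98) and at -0.07 with GENCODE length (edgeR adjusted p = 0.94).

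The summed metallothionein level then had a ratio of 0.815 between the groups, with 928 to 1054 CPM in the DMSO libraries and 783 to 822 CPM in the Rk2 libraries. SLC39A10 remained called at 0.20 ± 0.054 (edgeR adjusted p = 0.040). SLC30A1 and MTF1 changed sign, to -0.02 (edgeR adjusted p = 0.78) and -0.05 (edgeR adjusted p = 0.60). MT1A, MT1B and MT1H stayed negative, and none was called by edgeR, although 2 of the 3 had an unadjusted p under 0.05.

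**Figure D3:**
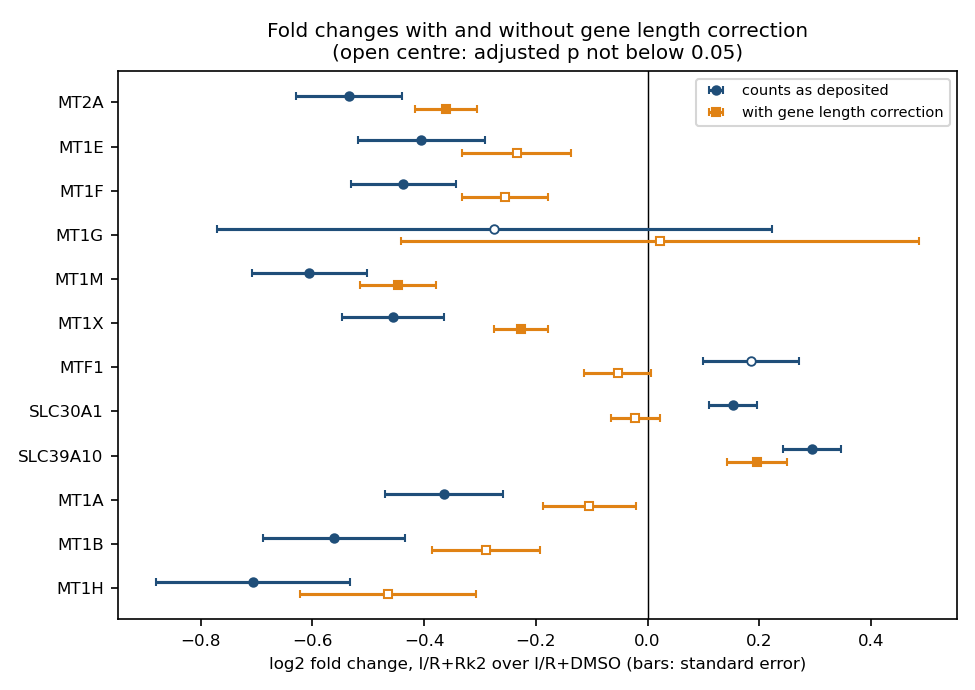
Log2 fold changes of I/R+Rk2 over I/R+DMSO (horizontal axis, bars are standard errors) for the 9 genes and for MT1A, MT1B and MT1H, from counts as deposited (blue circles) and after the gene length correction (orange squares); an open centre marks an adjusted p that is not below 0.05. All metallothionein values move toward 0 with the correction, and MT2A, MT1M and MT1X keep filled centres, while MT1G, SLC30A1 and MTF1 cross 0.

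Within groups, metallothioneins varied together only in part. Over the 8 libraries, the deviations of MT2A from its group mean on the log2 scale correlated with those of MT1M (r = 0.895), MT1X (0.856), MT1F (0.579), MT1G (0.578), MT1E (0.411), SLC39A10 (0.304), SLC30A1 (-0.197) and MTF1 (-0.597). With length corrected, r was 0.721 for MT1M, 0.622 for MT1X, 0.379 for MT1G, 0.115 for MT1F and -0.076 for MT1E. The corrected r was 0.546 for SLC39A10, 0.377 for SLC30A1 and -0.225 for MTF1, so SLC30A1 and MT1E changed sign. These values are descriptions over libraries that share depth and the length trend. MT1G was closest to MT1X (r = 0.836).

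Outside the 9 genes, those most like MT2A of the 9208 compared were COMMD8 (r = 0.989), PGP (0.987) and LYRM4 (0.981), none of which was called between the groups. With length corrected, their r was 0.921, 0.895 and 0.717, and other genes stood higher. Taking the highest of 9208 values over 8 libraries gives high r by selection alone. By uncorrected r to MT2A, MT1M ranked 190 and MT1X ranked 357. Short genes as a whole also stood high in I/R+DMSO replicate 1, where their median was 0.19 above the group mean and MT2A was 0.28 above it.

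**Figure D4:**
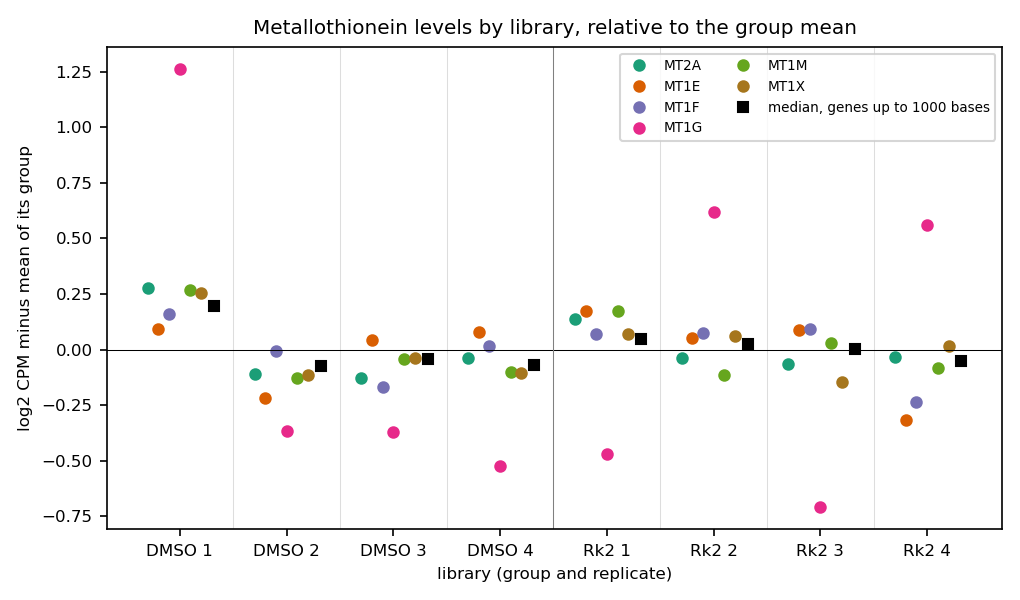
Log2 CPM of the 6 metallothioneins minus the mean of the gene's own group (vertical axis) in each library (horizontal axis), with the median of the 618 genes of up to 1000 bases as black squares. MT1G departs most, at 1.26 in I/R+DMSO replicate 1 and at 0.62 and 0.56 in I/R+Rk2 replicates 2 and 4. In these Rk2 libraries the other metallothioneins are at most 0.073 above their group mean.

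Of 10 further genes listed as zinc exporters, 7 were tested, with a median log2 fold change of 0.37. Of these 7, 3 rose and 1 fell, beside 11.0% higher and 7.24% lower among all tested genes. Among tested genes of over 5000 bases, 22.7% were called higher. SLC30A5 and SLC30A7, which load zinc into the secretory pathway, went from 50.3 ± 2.0 to 65.0 ± 2.9 CPM and from 52.3 ± 4.7 to 69.3 ± 4.0 CPM (SD, n = 4). Their log2 fold changes were 0.37 (edgeR adjusted p = 0.0032) and 0.41 (edgeR adjusted p = 0.0091). SLC30A7 was not called with GC corrected (0.20, edgeR adjusted p = 0.079) or with both length and GC corrected (0.12, edgeR adjusted p = 0.22). SLC30A10, known mainly as a manganese exporter, had 8.29, 10.8, 11.2 and 9.76 CPM with DMSO and 15.2, 15.0, 14.8 and 16.6 CPM with Rk2. It had the largest increase of the called exporters, at 0.62 ± 0.10 (edgeR adjusted p = 0.0061), and 0.60 with length corrected. SLC30A2, a vesicular zinc transporter, fell from 3.21 ± 0.32 to 1.99 ± 0.27 CPM (log2 fold change -0.68, edgeR adjusted p = 0.015). SLC30A3, SLC30A6 and SLC30A9 were not called, at 0.77, -0.08 and 0.10.

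Of 13 further zinc importers listed, 11 were tested, 3 rose (27.3%, beside 11.0% of all tested genes) and none fell by edgeR, with a median log2 fold change of 0.18. SLC39A3 was lower at an unadjusted p under 0.05 and was called lower by DESeq2. SLC39A14, an importer of zinc and iron that is abundant in liver, went from 666 ± 55.3 to 843 ± 22.8 CPM (log2 fold change 0.34, edgeR adjusted p = 0.0088). SLC39A7, which releases zinc from the endoplasmic reticulum, went from 204 ± 4.1 to 239 ± 5.8 CPM, and SLC39A6, a plasma membrane importer, from 82.4 ± 2.4 to 96.7 ± 2.8 CPM. Both rose by 0.23 on the log2 scale (edgeR adjusted p = 0.0040 and 0.0081), and all 3 remained called with length corrected. SLC39A6 was not called with GC corrected (0.12, edgeR adjusted p = 0.057) or with both (0.09, edgeR adjusted p = 0.12). SLC39A1, SLC39A3, SLC39A8 and SLC39A9 were not called, at 0.05, -0.37, -0.02 and 0.02. SLC39A1 had 116 CPM in I/R+DMSO replicate 2 and 180 to 211 CPM in the other libraries.

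**Figure D5:**
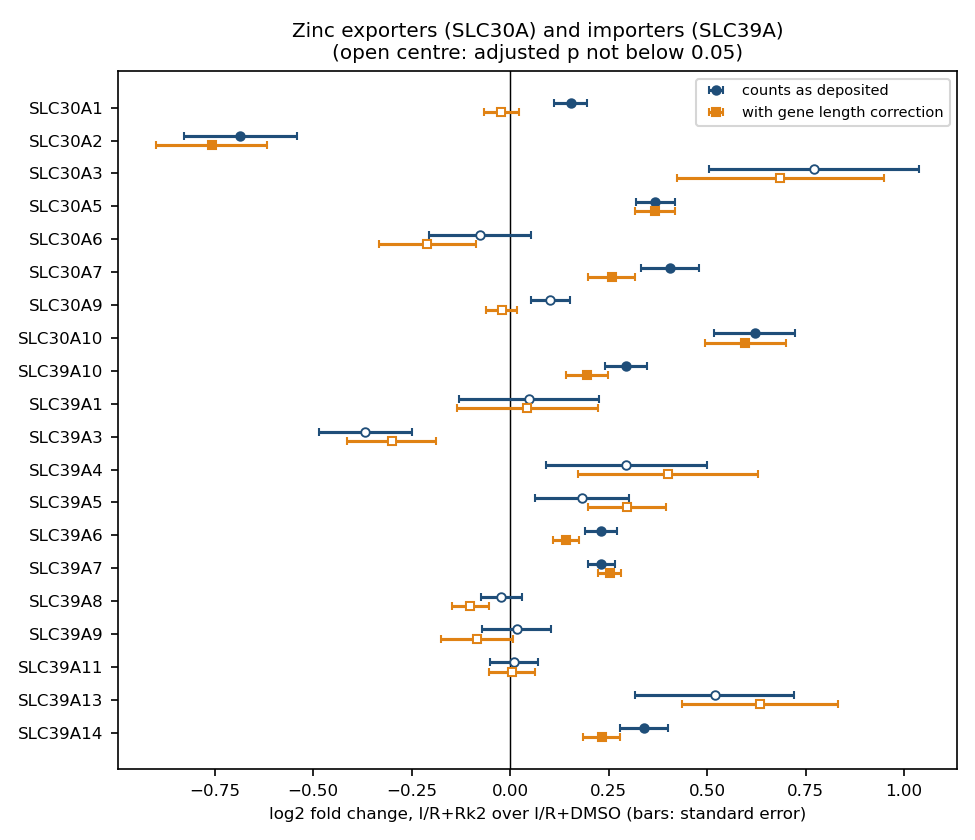
Log2 fold changes of I/R+Rk2 over I/R+DMSO (horizontal axis, bars are standard errors) for tested zinc exporters and importers, from counts as deposited (blue circles) and with the gene length correction (orange squares); an open centre marks an adjusted p that is not below 0.05. SLC30A5, SLC30A7, SLC30A10, SLC39A6, SLC39A7, SLC39A10 and SLC39A14 lie to the right with filled centres in both, and SLC30A2 lies to the left.

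Metallothioneins also bind copper, and of 15 copper-handling genes, all tested, 2 rose (13.3%, near the 11.0% of all tested genes) and none fell by edgeR on counts as deposited, with a median log2 fold change of 0.23. At an unadjusted p under 0.05, 4 were lower, and DESeq2 called 3 lower (SOD1, ATOX1 and SCO1). SLC31A1, the high-affinity copper importer, had 127, 151, 152 and 143 CPM with DMSO and 213, 212, 212 and 227 CPM with Rk2. The groups were far apart, and it rose by 0.59 ± 0.061 on the log2 scale (edgeR adjusted p = 0.00096), or 0.45 with length corrected. CP, the copper-carrying plasma protein ceruloplasmin, rose by 0.37 (edgeR adjusted p = 0.020). Its call was kept in 5 of 8 fits without a single library (leaving out replicate 2 of I/R+DMSO or replicate 3 or 4 of I/R+Rk2 ended it) and was lost with GC corrected (0.22, edgeR adjusted p = 0.086). SOD1, SCO1 and CCS were not called, at -0.23, -0.16 and -0.14. With length corrected, however, SCO1, a copper chaperone of mitochondria, was called lower (-0.41, edgeR adjusted p = 0.0029), as it was in 8 of 17 settings.

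COMMD1, which takes part in copper export, was not called either (log2 fold change 2.08 ± 0.65, edgeR adjusted p = 0.061). Of 17 settings only DESeq2 called it higher. Of the 8 fits without a single library, only that without I/R+Rk2 replicate 3 called it. It had 14.7, 30.6, 11.6 and 11.6 CPM with DMSO and 84.8, 102, 11.0 and 91.3 CPM with Rk2, so that 3 Rk2 libraries were high and replicate 3 was the lowest of all 8. COMMD1 shared 741 exonic bases with the pseudogene RPSAP26 on the same strand.

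Of 9 stress genes known to rise in cells given cadmium or excess zinc, 5 rose (55.6%, beside 11.0% of all tested genes) and none fell by edgeR, with a median log2 fold change of 0.34. At an unadjusted p under 0.05, 0 were lower, and DESeq2 called 0 lower. SLC7A11, the cystine importer that feeds glutathione synthesis, had 65.4, 69.4, 67.2 and 80.6 CPM with DMSO and 161, 169, 176 and 182 CPM with Rk2. All Rk2 libraries were at about the same high level, and the log2 fold change was 1.28 ± 0.073 (edgeR adjusted p = 6.6e-05), or 1.02 with length corrected. HMOX1, the haem-degrading enzyme, went from 134 ± 12.3 to 187 ± 7.2 CPM (log2 fold change 0.48, edgeR adjusted p = 0.0035).

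GCLM, the modifier subunit of the enzyme that starts glutathione synthesis, went from 210 ± 6.1 to 266 ± 6.3 CPM (log2 fold change 0.34, edgeR adjusted p = 0.0010). The heat shock genes HSPA1A and HSPA1B rose by 0.36 and 0.34 on the log2 scale (edgeR adjusted p = 0.011 and 0.012). They are near-identical copies whose reads cannot be assigned with certainty. TXNRD1, SRXN1, DNAJB1 and GCLC were not called, at 0.17, -0.04, 0.11 and -0.06. All 5 genes that rose were still called with length corrected, but GCLM was not with GC corrected (0.15, edgeR adjusted p = 0.069) or with both (0.12, edgeR adjusted p = 0.12). SLC30A5, SLC39A7, CP and SLC7A11 overlap genes on the opposite strand, and the use of strand in counting is not given in the sources used here.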

How the data were processed

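Total RNA from 8 HuH7 libraries (4 I/R+DMSO, 4 I/R+Rk2, grouped by the labelled treatment) was converted with an MGIEasy kit and sequenced on a BGISEQ platform. The submitters' processing notes name FastQC 0.11.5, HISAT2 2.2.1 and StringTie 1.3.3 with hg38. The annotation and counting settings are not given in the sources used here. The authors deposited unnormalised read counts per gene, and FPKM values per gene that they had scaled by length and depth. Of 15767 rows of the count table, 22 whose symbols had turned into dates (0.111% of counts) were dropped. The tested genes held 99.959% of the remaining counts.

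Counts were tested with edgeR 4.0.16 (R 4.3.3; TMM factors, robust quasi-likelihood fit, two-sided, Benjamini-Hochberg over 12910 genes). SE is the absolute log2 fold change over the root of F. Gene length was the median over libraries of the count over FPKM and library total. The length correction entered a loess trend (span 0.5) per library as an offset. Alternatives were DESeq2 1.42.0, other scalings and filters, limma 3.58.1 on log2(FPKM + 1) and log2(FPKM + 0.1), voom weights, a replicate block and leaving out each library. GENCODE length, GC, joint length and GC corrections, and length correction without I/R+DMSO replicate 1 were added after seeing the data. Scripts were tested on simulated data. Libraries of a group differed by more than sampling noise (chi-square per degree of freedom at least 16.1). Coding sequences came from GENCODE transcripts and promoters from RefSeq.

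The genes and lists were chosen with earlier results of these data known. The text names the 9 genes, every called gene of the lists, up to 4 uncalled genes per list with the highest mean CPM, and the 3 genes most like MT2A. Protein sequences were not used here.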

Additional observations from a re-analysis of the deposited data

Results flagged for a closer look

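Within each group of 4 libraries, the gap of the highest or lowest library to its nearest neighbour was set against the range of the group, and 8 of 28 such groups passed Dixon's critical value for 4 values. Chance alone passes about 1 in 20 groups, and these groups are not independent, since they share libraries. I/R+DMSO replicate 1 was far from the others in MT1G (76.6 CPM against 22.2 to 24.7), in MTF1 (34.8 CPM against 42.1 to 43.3) and in SLC30A1 (164.2 CPM against 170.3 to 171.4). It was also apart in MT1G as a percentage of MT2A (13.8% against 4.96% to 5.88%). In I/R+DMSO replicate 3, SLC39A10 was low, at 19.0 CPM against 20.6 to 20.8. In the I/R+Rk2 group, MT2A was high in replicate 1 (350.5 CPM against 305.2 to 311.4), MT1F was low in replicate 4 (44.6 CPM against 55.2 to 56.0), and MT1H was high in replicate 2 (1.01 CPM against 0.759 to 0.787). The part of the length trend in these values was not tested.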

How the results depend on the processing

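MT2A, MT1M and MT1X were called lower in all 8 fits that left out a library and in each of 17 fits on other settings, the reported one included (log2 fold changes -0.56 to -0.32, -0.63 to -0.37 and -0.48 to -0.18 in the latter). MT1F was called in 8 of 8 and 14 of 17, MT1E in 2 of 8 and 6 of 17, and SLC39A10 in 8 of 8 and 12 of 17. Of the 9 genes, 7 were called in the reported fit and 4 with each of the 3 limma fits on FPKM. Called were 4 with length correction, 5 with GENCODE length, 4 with GC correction and 3 with length and GC correction. Length correction without I/R+DMSO replicate 1 called 4. The count over all genes, 2352 (1417 higher, 935 lower), became 1124, 1107 and 971 in the limma fits with pseudocount 1, with 0.1 and without filter, and 1295 to 2275 with a library left out. The split of calls was 1246 higher and 1306 lower with upper-quartile scaling, 1642 and 683 with library size only, 1030 and 1227 with length correction, 1100 and 1180 with GENCODE length, 1028 and 1095 with GC correction, 924 and 1135 with both, and 931 and 1033 with length correction without I/R+DMSO replicate 1. The limma fits had 813 and 311, 799 and 308, and 707 and 264. Called exporters went from 4 to 1 in each limma fit. Called copper genes went from 2 to 6 with DESeq2, 5 with upper-quartile scaling, 1 with unfiltered limma and 4 with the replicate block, and to 1 to 3 with a library left out. The log2 ratio of the summed metallothionein level went from -0.48 to -0.29 with length correction. The cause of these changes was not tested.

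Signs changed only in genes that were not called, apart from SLC30A1. MT1G was at 0.0445 with voom weights, 0.0222 with length correction, 0.0687 with length and GC correction and 0.566 with length correction without I/R+DMSO replicate 1, and ran from -0.488 to 0.359 with a library left out. In the order length correction, length and GC correction, and length correction without I/R+DMSO replicate 1, MTF1 was at -0.0531, -0.0441 and -0.0728. In the order length, GC, and length and GC correction, SLC30A1 was at -0.0219, -0.0297 and -0.136, SLC30A9 at -0.0213, -0.0583 and -0.117, and SLC39A9 at -0.0834, -0.0566 and -0.113. With length correction without I/R+DMSO replicate 1, SLC30A9 was at -0.0226 and SLC39A9 at -0.0358, and SLC39A9 was at -0.0712 with GENCODE length and -0.0117 with upper-quartile scaling. SLC39A8 was at 0.00964 with library size only. In the limma fits with pseudocount 1, with 0.1 and without filter, SLC39A8 was at 0.0174, 0.0195 and 0.0174, and GCLC at 0.0499, 0.0517 and 0.0499. CCS was at 0.0551 with length and GC correction and SRXN1 at 0.0337 with GENCODE length. With a library left out, SLC39A1 ran from -0.121 to 0.120, SLC39A9 from -0.0272 to 0.0615, SLC30A6 from -0.171 to 0.0338 and GCLC from -0.166 to 0.0135.

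Same-numbered libraries of the groups showed no strong shared deviation across genes (r = 0.015, -0.016, 0.037 and 0.088). A low correlation cannot decide whether a number marks a shared day or batch, and no label says so. With the replicate number as a block, 1815 genes and 5 of the 9 were called.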
